A study of Mus musculus with 4 samples.

Results

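The AP-2 transcription factor genes Tfap2a, Tfap2b and Tfap2c were followed across the cell classes of the mouse mammary epithelium. The 3 members were chosen by name from the 31053 genes of the count matrices. The family has 2 other genes, which were barely counted: Tfap2d had 0 UMIs (unique molecular identifiers, each standing for 1 captured transcript) in 17832 cells, and Tfap2e had 15, of which 13 lay in luminal progenitor cells. Droplet-based 3′ single-cell RNA libraries had been made from the fourth mammary glands of 4 FVB mice at postnatal week 9, with 1 mouse per library. All 4 mice carried Tfap2cfl/fl / Krt5-CreERT2, so the controls held the floxed Tfap2c alleles and the inducible Cre recombinase as well. Mice were given corn oil, the vehicle (2 libraries), or 4-hydroxytamoxifen (4OHT, 2 libraries), which activates CreERT2, from week 4, for 5 days by one label and for 1 week by another. Cre was driven by the Krt5 promoter, which limits recombination to cells that use that promoter, and the study asked how loss of Tfap2c affects mammary stem cells.

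AP-2 proteins bind GC-rich DNA as homodimers or heterodimers, through a basic and helix-span-helix region in the C-terminal part of the protein. AP-2α, AP-2β and AP-2γ, the products of Tfap2a, Tfap2b and Tfap2c, act in neural crest, skin, limb and placenta development. In breast tissue and breast cancer cells, AP-2γ and AP-2α are known as regulators of receptor genes such as ERBB2 and ESR1, and AP-2β is known as a marker of luminal breast epithelium and of lobular cancers.

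The members are paralogs on 3 chromosomes, and their coding sequences show how far reads could be told apart. In GENCODE M21 (GRCm38), Tfap2a lies at chr13:40715302-40738376 on the minus strand, Tfap2b at chr1:19208914-19238576 on the plus strand and Tfap2c at chr2:172549593-172558622 on the plus strand. The principal transcript of each gene has 7 exons, and the coding lengths are 1311 bases for Tfap2a, 1377 for Tfap2b and 1347 for Tfap2c. Scored were 90-base coding stretches that lie in a single exon of each gene and hold no alignment gap. The stretch with the most bases shared by all 3 genes is printed 5′ to 3′ on the coding strand. It is shown because the members look most alike there among the stretches scored. It falls in coding exon sequence, in exon 4 of each gene (chr13:40723108-40723197, chr1:19226549-19226638 and chr2:172553526-172553615). Lower case marks the 64 bases that are identical in all 3 genes, and capitals mark the 26 that are not.
Tfap2a: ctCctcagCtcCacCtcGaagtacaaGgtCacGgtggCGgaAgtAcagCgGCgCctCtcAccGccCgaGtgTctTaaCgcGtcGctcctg
Tfap2b: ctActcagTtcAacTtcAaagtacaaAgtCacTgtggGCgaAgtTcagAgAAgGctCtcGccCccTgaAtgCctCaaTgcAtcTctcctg
Tfap2c: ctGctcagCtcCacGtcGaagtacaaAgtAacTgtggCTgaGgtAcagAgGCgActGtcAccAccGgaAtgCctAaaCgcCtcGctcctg

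Most of the capitals sit 3 bases apart, so the stretch differs mainly at regularly spaced bases. Over the whole aligned coding sequence, Tfap2a and Tfap2b shared 69.1% of bases, Tfap2a and Tfap2c 64.6%, and Tfap2b and Tfap2c 63.6%. Identity was higher in the second part of the alignment than in the first for every pair, at 73.1% against 64.8% for Tfap2a and Tfap2b, 69.6% against 59.3% for Tfap2a and Tfap2c, and 68.1% against 58.8% for Tfap2b and Tfap2c. In the last 500 bases of the transcripts, where 3′ libraries take their reads, the longest run shared by 2 members was 9, 9 and 13 bases for the same pairs. Tfap2a is overlapped by 3 antisense genes, Gm47061, Gm26688 and Gm47067, with 48, 81 and 5 UMIs, the nearest of which begins 7808 bases from the 3′ end of Tfap2a. The strand setting of the counting is not given in the sources used here, so reads in those overlaps cannot be told apart.

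Cells were classed with no AP-2 gene in the rule. Basal cells had at least 5 UMIs of Krt5, Krt14, Krt17 and Acta2 and more than 3 times their UMIs of Krt8, Krt18 and Krt19, luminal cells the reverse, and luminal cells were hormone-sensing where Ly6d, Fxyd2 and Gpx3 summed to at least 3 UMIs and to more than Wfdc18, Csn3 and Ltf, and progenitor cells otherwise. Of 18223 barcodes, 17832 had at least 1000 UMIs, and 150 of these carried a barcode that another library also used. The rule gave 7028 basal cells (myoepithelial layer), 5629 luminal progenitor cells and 1168 hormone-sensing luminal cells, and it left 2335 cells with at least 5 UMIs of both keratin groups in neither class. These last are called mixed keratin cells. Library totals ran from 17351950 to 22017878 UMIs, and the median per kept cell was 5328 and 4312 in the libraries numbered 1 (corn oil, 4OHT) against 3663 and 3092.5 in those numbered 2. Marker sums were highest in the class they name, least sharply for progenitor markers. Basal genes outside the rule reached 3801 to 5036 CPM (a gene's UMIs scaled to a common total) in basal cells against at most 238 CPM in progenitor cells. Hormone-sensing markers reached 1165 to 2234 CPM in their class against at most 133 CPM in progenitor cells. Progenitor markers reached 4962 to 6968 CPM in progenitor cells but also 980 to 2331 CPM in basal cells. The hormone-sensing class also held 53.5 to 1346 CPM of fibroblast markers, highest in 4OHT replicate 1, where all 6 markers had UMIs. Their part in the results was not tested.

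Tfap2c, the floxed gene, was given first in every library because it checks the labels. In basal cells, the class that uses the Krt5 promoter, Tfap2c stood at 389 and 285 CPM in replicates 1 and 2 given corn oil by label, and at 285 and 325 CPM in replicates 1 and 2 labelled 4OHT. The groups overlapped: 4OHT replicate 2 lay between the corn oil libraries, and 4OHT replicate 1 was level with the lower of them. The log2 fold change of 4OHT over corn oil was −0.08 (SE 0.25, 95% interval −0.68 to 0.52, adjusted p = 0.999, edgeR quasi-likelihood test with Benjamini-Hochberg adjustment), and the groups did not differ beyond their spread. Since the floxed gene was not measurably lower, the libraries are called by their labels throughout. A 3′ count does not tell exons apart, the floxed exons are not given in the sources used here, so this count is no check of the deletion itself. Adding the mixed keratin cells to the basal class turned the sign, to 0.16 (adjusted p = 1.00, same test).

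Across classes, Tfap2c had the steepest pattern of the 3 members. In luminal progenitor cells it stood at 50.6 and 35.9 CPM with corn oil and 52.2 and 35.3 CPM with 4OHT as the label (replicates 1 and 2). In hormone-sensing cells it stood at 14.6 and 5.88 CPM and at 10.3 and 5.12 CPM. No progenitor value came near a basal one, and no hormone-sensing value came near a progenitor one. Tfap2c was higher in basal than in progenitor cells by a log2 fold change of 2.61 (SE 0.15, adjusted p = 2.6e-07, higher in 4 of 4 libraries, edgeR quasi-likelihood test with library as a block), in a contrast in which 55.8% of 10580 genes were called. It was lower in hormone-sensing than in progenitor cells by a log2 fold change of −2.57 (SE 0.19, adjusted p = 1.7e-07, lower in 4 of 4 libraries, edgeR), where 52% of 9501 genes were called. Between basal and hormone-sensing cells the log2 fold change was 5.19 (SE 0.23, adjusted p = 2.8e-11, edgeR), where 59.5% of 10029 genes were called. Only 205 of those genes had a larger log2 fold change toward basal cells.

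The lowest of these levels was close to that of non-epithelial cells. The 492 endothelial, fibroblast and leukocyte cells, which should lack AP-2, held 10 Tfap2c UMIs in all (6.92 CPM), against 58 UMIs in the hormone-sensing cells (5.12 to 14.6 CPM by library). The pooled non-epithelial level lay inside the hormone-sensing range, and the part of free RNA in the hormone-sensing level was not tested. For Tfap2a and Tfap2b the same non-epithelial cells held 4.85 and 3.46 CPM, pooled over the 4 libraries, below every library of every epithelial class. Progenitor cells held 285 Tfap2c UMIs per 1000 UMIs of 6 basal genes outside the rule (Mylk, Cnn1, Tagln, Myh11, Oxtr and Trp63), against 76.1 in basal cells. By library the ratio ran from 220 to 382 in progenitor and from 64.6 to 96.8 in basal cells. In hormone-sensing cells it was 157 over all libraries, and 181, 208, 246 and 85.5 in corn oil replicates 1 and 2 and 4OHT replicates 1 and 2, from 58 Tfap2c UMIs. Both luminal classes thus had a higher ratio than the basal cells of the same library in 4 of 4 libraries. In mixed keratin cells the ratio was 141 over all libraries, and 132, 138, 154 and 135 in the same order. The hormone-sensing ratio lay below the mixed keratin one in 4OHT replicate 2, from 13 Tfap2c UMIs, and above it in the other libraries.

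Tfap2b gave a pattern with low progenitor cells and with both other classes high. Basal cells held 47.6 and 50.8 CPM with corn oil and 62.5 and 65.6 CPM with 4OHT as the label. Hormone-sensing cells held 68.6, 64.7, 57.3 and 64.6 CPM in the same order, and progenitor cells 27.1, 19.3, 19.9 and 20.4 CPM. Every basal and hormone-sensing value lay above every progenitor value, while basal and hormone-sensing values overlapped. Tfap2b was higher in basal than in progenitor cells by a log2 fold change of 1.10 (SE 0.17, adjusted p = 3.2e-04) and higher in hormone-sensing than in progenitor cells by 1.35 (SE 0.15, adjusted p = 4.9e-06), in edgeR quasi-likelihood tests and in 4 of 4 libraries each. Basal and hormone-sensing cells differed by −0.24 (95% interval −0.59 to 0.11, adjusted p = 0.232, edgeR), which did not pass the threshold.

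Tfap2a overlapped between classes and varied between libraries. Basal cells held 65.4 and 36.6 CPM with corn oil and 59.1 and 35.8 CPM with 4OHT as the label. Hormone-sensing cells held 57.8, 33.5, 63.1 and 38.2 CPM in that order, and progenitor cells 25.5, 40.8, 36.9 and 21.3 CPM. In basal and in hormone-sensing cells both libraries numbered 1, the deeper ones, lay above both numbered 2, and the progenitor values overlapped those of both other classes. The part of depth in this split was not tested. None of the class differences of Tfap2a passed the threshold: the log2 fold change was 0.38 (SE 0.19, adjusted p = 0.118) for basal over progenitor cells, −0.04 (SE 0.15, adjusted p = 0.854) for basal over hormone-sensing cells and 0.43 (SE 0.17, adjusted p = 0.0551) for hormone-sensing over progenitor cells (edgeR quasi-likelihood tests). Without corn oil replicate 2, the only library in which Tfap2a was higher in progenitor than in both other classes, the first and the third passed, with 0.61 (adjusted p = 0.0153) and 0.64 (adjusted p = 0.00361). Over all alternatives the adjusted p ran from 0.0153 to 0.480 for basal over progenitor cells and from 0.00361 to 0.285 for hormone-sensing over progenitor cells. So 2 of 3 members passed in both contrasts with progenitor cells, where 55.8% and 52% of all genes passed, and 1 of 3 between basal and hormone-sensing cells, where 59.5% did. These counts are near the shares of all genes.

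**Figure D1:**
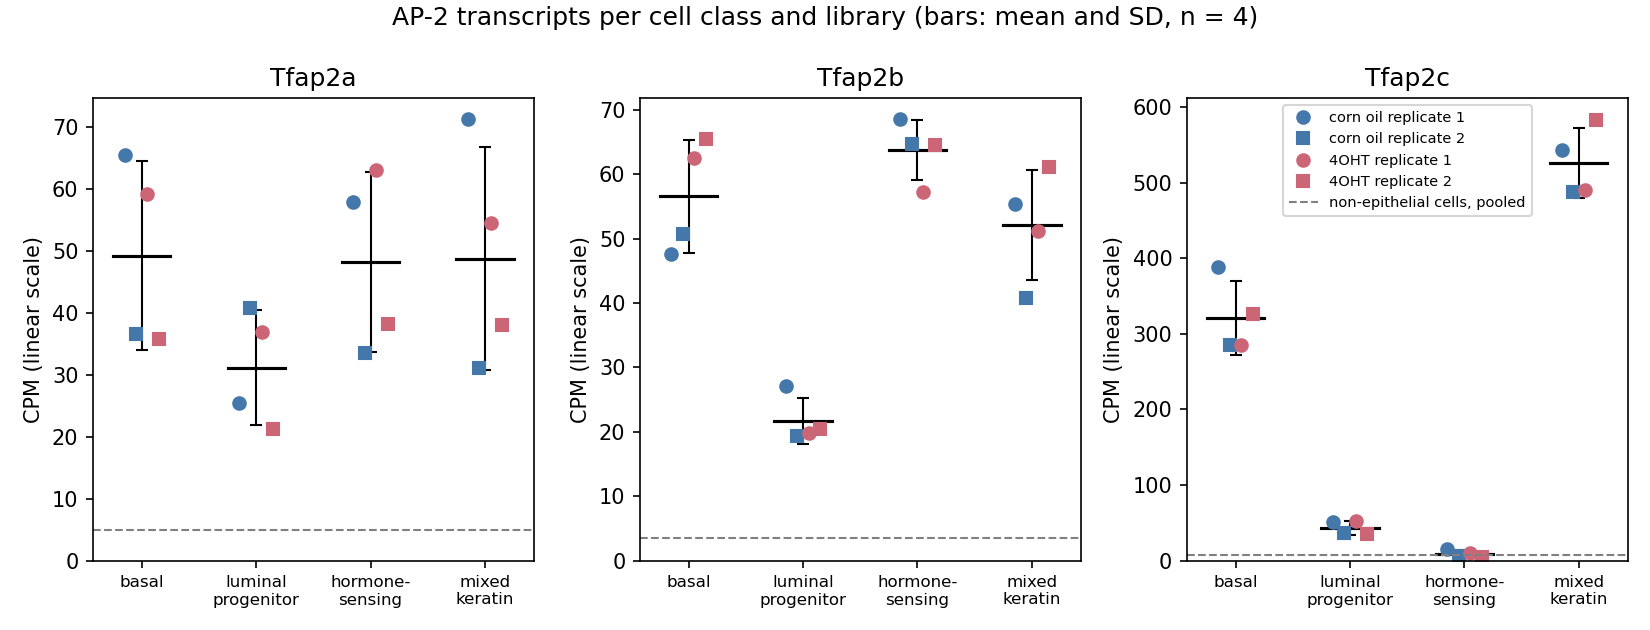
CPM (linear axis, each panel with its own scale) of Tfap2a, Tfap2b and Tfap2c in basal, luminal progenitor, hormone-sensing and mixed keratin cells, with 1 point per library, the mean and SD over 4 libraries as bars, and the pooled level of 492 non-epithelial cells as a dashed line. Tfap2c falls from 321 CPM in basal to 8.99 CPM in hormone-sensing cells, Tfap2b is lowest in progenitor cells, and Tfap2a overlaps between classes.

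Because each UMI stands for 1 molecule, the make-up of the family's UMIs was compared between classes. Tfap2c made up 75.1 ± 3.38% of the 3 members' UMIs in basal cells, 45.0 ± 5.30% in progenitor cells and 7.16 ± 2.52% in hormone-sensing cells (SD, n = 4 libraries). The Tfap2c share fell from class to class with no overlap between libraries. Tfap2b made up 13.5 ± 2.77%, 22.8 ± 4.25% and 53.6 ± 8.79% in the same order, and Tfap2a 11.4 ± 2.83%, 32.2 ± 7.89% and 39.2 ± 7.05%. These shares are of UMIs, one class against another, and are not scaled by gene length.

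Detection per cell was compared after every cell was thinned to 2000 UMIs, which leaves out shallower cells. A Tfap2c UMI was found in 39.0 ± 4.85% of basal cells (34.1% to 45.1% by library), 7.67 ± 1.93% of progenitor cells and 0.575 ± 0.518% of hormone-sensing cells (SD, n = 4). Thinning left out 34, 183, 111 and 379 basal cells in corn oil replicates 1 and 2 and 4OHT replicates 1 and 2. Without thinning, 68.7%, 44.6%, 49.1% and 47.9% of basal cells held one, with a median of 5152.5, 3172, 3850 and 2827.5 UMIs per cell. In corn oil replicate 1, 0 of 151 thinned hormone-sensing cells had a Tfap2c UMI, which at that depth allows a share of up to 1.99%, while 12 of the same 151 cells (7.95%) had one before thinning, at a median of 8258 UMIs. Before thinning, the other hormone-sensing shares were 2.73%, 4.58% and 2.46%, at medians of 4745.5, 6152 and 5083 UMIs, and the non-epithelial share was 1.42% of 492 cells at a median of 2226 UMIs. At these unequal depths no order is read from them. Tfap2a was found in 7.98 ± 1.94%, 5.44 ± 1.77% and 8.64 ± 2.16%, and Tfap2b in 9.80 ± 1.86%, 4.21 ± 0.246% and 10.6 ± 2.81%, of basal, progenitor and hormone-sensing cells. The intervals and limits cover counting error only.

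Non-detection of Tfap2c followed depth. Among basal cells of 1000 to 2000 UMIs, 32.4%, 21.9%, 19.8% and 26.1% had a Tfap2c UMI in corn oil replicates 1 and 2 and 4OHT replicates 1 and 2. Above 8000 UMIs the shares were 88.7%, 78.3%, 84.2% and 80.0%, from 141, 23, 57 and 15 cells. Above 8000 UMIs the progenitor shares were 35.1%, 32.8%, 42.0% and 32.0%, and the hormone-sensing shares 8.54%, 7.14%, 12.96% and 7.46%. The order of the classes was the same at that depth in every library. The largest count in a single cell was 27 UMIs for Tfap2c, 15 for Tfap2a and 7 for Tfap2b.

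Pairs of members were found in the same basal cells about as often as their single shares would give. In thinned basal cells, 244 of 6321 held UMIs of both Tfap2b and Tfap2c, against 240 from the product of the shares within each library, 208 held Tfap2a and Tfap2c against 194, and 52 held Tfap2a and Tfap2b against 47.6. All 3 members were found together in 24 basal cells, and none of the 3 in 3222. In thinned hormone-sensing cells, 11 of 1149 held Tfap2a and Tfap2b against 9.40 from the product. In thinned progenitor cells, 29 of 5275 held Tfap2a and Tfap2c against 22.2, and 14 held Tfap2b and Tfap2c against 17.4. Tfap2a and Tfap2b were found together in 14 of them, against 11.9. In thinned mixed keratin cells, 27 of 2242 held Tfap2a and Tfap2b against 20.5, and 101 held Tfap2a and Tfap2c against 110. Tfap2b and Tfap2c were found together in 140 of these, against 139. These counts describe sparse data and carry no test.

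Under treatment, no member passed the threshold in any class. In basal cells Tfap2b was the one member whose groups did not overlap, with 62.5 and 65.6 CPM in the 4OHT-labelled libraries against 47.6 and 50.8 CPM in the corn oil-labelled ones. Its log2 fold change was 0.43 (SE 0.24, 95% interval −0.15 to 1.01, unadjusted p = 0.122, adjusted p = 0.999, edgeR quasi-likelihood test), and the adjusted p ran from 0.212 to 1.00 over the alternatives. The groups did not overlap for 30.7% of the 10775 genes tested in basal cells, and both 4OHT-labelled libraries lay above both others for 13% of them. In thinned basal cells a Tfap2b UMI was found in 8.21 ± 0.588% of cells with the corn oil label against 11.4 ± 0.015% with the 4OHT label (SD over 2 libraries each, exact two-sided permutation p = 0.333, the smallest that 2 against 2 allows). The mixed keratin cells did not repeat this, with Tfap2b at 55.4 and 40.9 CPM under the corn oil label against 51.3 and 61.2 CPM under the 4OHT label. In hormone-sensing cells the order was reversed, with 68.6 and 64.7 CPM under the corn oil label against 57.3 and 64.6 CPM under the 4OHT label.

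The other treatment differences within a class were smaller than their standard errors. In basal cells Tfap2a differed by −0.07 (SE 0.34), and edgeR called 0% of 10775 genes at an adjusted p under 0.05 (464 had an unadjusted p that low, and DESeq2 called 38). In progenitor cells Tfap2a, Tfap2b and Tfap2c differed by −0.10 (SE 0.35), −0.12 (SE 0.32) and 0.10 (SE 0.32), where edgeR called 0% of 10107 genes (164 had an unadjusted p under 0.05, and DESeq2 called 1). In hormone-sensing cells they differed by 0.12 (SE 0.35), −0.16 (SE 0.27) and −0.45 (SE 0.56), where 0.0132% of 7576 genes were called. The test of whether the treatment effect differed between basal and progenitor cells gave 0.04 (SE 0.41), 0.51 (SE 0.33) and −0.21 (SE 0.30) for the 3 members. None passed the threshold, and edgeR called 0% of 11421 genes (427 had an unadjusted p under 0.05). Between hormone-sensing and progenitor cells the same test gave 0.22 (SE 0.34), −0.08 (SE 0.30) and −0.53 (SE 0.42), with 0.0573% of 10480 genes called.

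**Figure D2:**
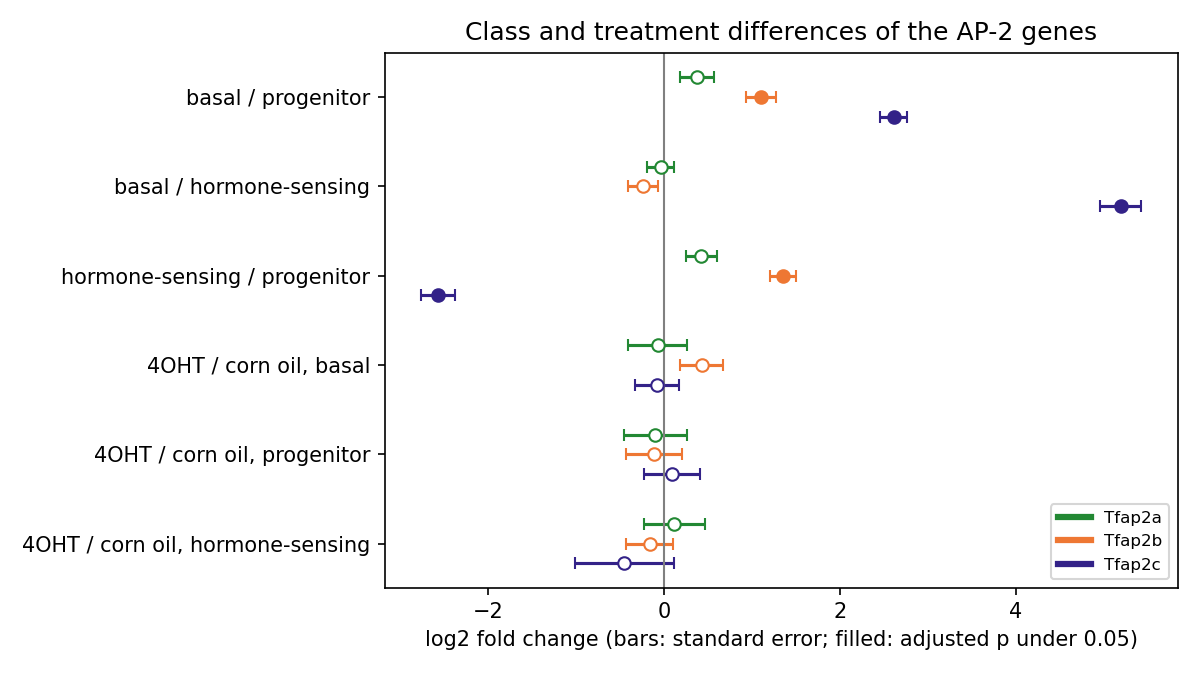
Log2 fold changes (x axis) of Tfap2a, Tfap2b and Tfap2c from edgeR for 3 contrasts of cell classes (top) and for 4OHT over corn oil within each class (bottom), with standard errors as bars and filled points for an adjusted p under 0.05. Tfap2c and Tfap2b carry every filled point, from −2.57 to 5.19, and no point of the treatment contrasts is filled.

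The cells that the class rule left out were looked at after the Tfap2c values had been seen, so their AP-2 levels are given as a description with no test. In mixed keratin cells Tfap2c stood at 543 and 487 CPM under the corn oil label and 490 and 583 CPM under the 4OHT label. All 4 values lay above all 4 basal values, and after thinning 57.7 ± 3.25% of these cells held a Tfap2c UMI (SD, n = 4). Tfap2a, at 71.3, 31.1, 54.4 and 38.1 CPM, and Tfap2b, at 55.4, 40.9, 51.3 and 61.2 CPM, stayed within or near their basal ranges. The mixed class made up 8.22 ± 2.16% of cells under the corn oil label against 17.0 ± 1.28% under the 4OHT label (SD over 2 libraries each, exact two-sided permutation p = 0.333, the smallest possible). Basal genes outside the rule reached 3179 to 4332 CPM in them, and hormone-sensing markers 21.9 to 81.7 CPM. The sum of the 5 progenitor markers was 746 to 1631 CPM, against 980 to 2331 CPM in basal cells. Most of that sum was Lcn2 (1103 against 1590 CPM, lower in 4 of 4 libraries), while the other 4 markers, Aldh1a3, Cd14, Elf5 and Kit, were higher in mixed keratin cells in 4 of 4 libraries. Their median depth was 6453.5, 3664, 5471 and 3170 UMIs, above that of basal cells in each library. The part of droplets that hold more than 1 cell was not tested.

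Along a finer scale, Tfap2c followed the luminal keratin share within the basal side. The share is Krt8, Krt18 and Krt19 UMIs over these plus Krt5, Krt14, Krt17 and Acta2 UMIs, in cells outside the non-epithelial classes with at least 10 such UMIs. Mean Tfap2c over the 4 libraries was 180 CPM in cells with a share up to 2%, 241 CPM from 2% to 5%, 296 CPM from 5% to 10%, 412 CPM from 10% to 25% and 512 CPM from 25% to 40%. The level went up at each of these 4 steps in every library. It was 542 CPM from 40% to 60%, 401 CPM from 60% to 75% and 74.7 CPM from 75% to 90%, and it stayed between 31.4 and 34.8 CPM above that.

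Libraries differed at the basal end of this scale, and also from 60% to 75%, where Tfap2c ran from 182 to 558 CPM. In cells with a share up to 2%, Tfap2c stood at 298 CPM in corn oil replicate 1, 155 CPM in corn oil replicate 2, and at 100 and 168 CPM in the pair labelled 4OHT. Corn oil replicate 1 was apart from the other 3, and its rise to the highest interval below 75% was 1.95-fold, against 3.43-fold, 5.58-fold and 3.67-fold in the others. Tfap2b means stayed between 50.2 and 60.9 CPM and Tfap2a means between 35.9 and 55.4 CPM in all intervals up to 75%. The progenitor genes Wfdc18, Csn3 and Ltf together stayed at or below 403 CPM in every library up to a share of 40%, and were at 5238 CPM or more in every library above 75%. The 4 upward steps of Tfap2c were also present in every library without the cells of highest Scrublet doublet score and in cells of at least 4000 UMIs. Without those cells, the progenitor genes stood at 90.6 to 138 CPM from 25% to 40%, against 122 to 175 CPM up to 2%. In cells of at least 4000 UMIs they stood at 181 to 923 CPM against 27.8 to 108 CPM.

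**Figure D3:**
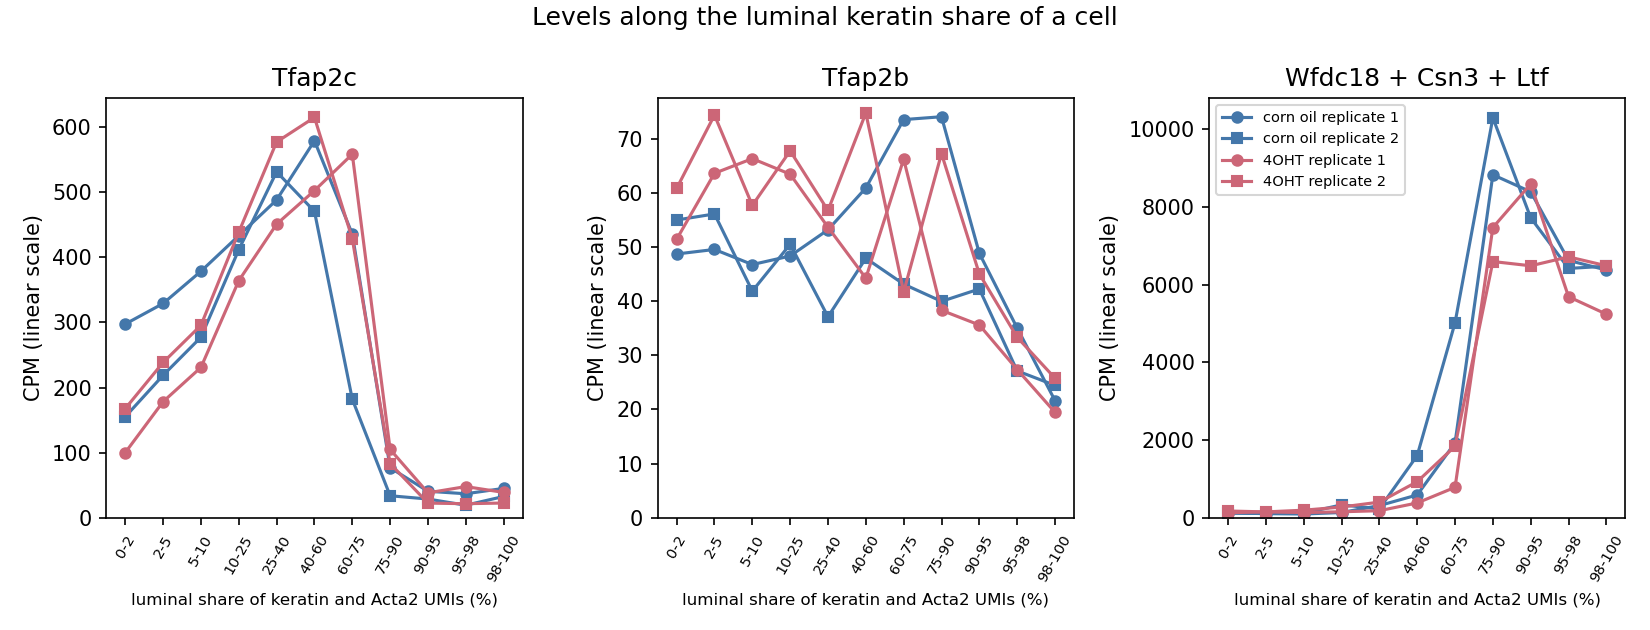
CPM (linear axes) of Tfap2c, Tfap2b and the sum of Wfdc18, Csn3 and Ltf in 11 intervals of the luminal share of keratin and Acta2 UMIs per cell, with 1 line per library. Tfap2c climbs from 100 to 298 CPM at the left to between 451 and 577 CPM in the interval from 25% to 40%, where the progenitor genes stand at 181 to 403 CPM against 121 to 174 CPM at the left.

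Within the classes, subsets set by genes other than AP-2 were compared with the rest of their class, with library as a block. Interferon-high basal cells (at least 5 UMIs of Ifit1, Ifit3, Isg15 and Irf7, genes that interferon induces) held less Tfap2c in every library. They had 209 against 420 CPM in corn oil replicate 1, 106 against 326 CPM in corn oil replicate 2, and 168 against 293 and 150 against 333 CPM in 4OHT replicates 1 and 2. Every subset value lay below every value of the rest. The log2 fold change was −1.54 (SE 0.14, adjusted p = 4.0e-08, edgeR quasi-likelihood test), in a contrast in which 37.2% of 9381 genes were called. Tfap2a (0.35, adjusted p = 0.0940) and Tfap2b (−0.33, adjusted p = 0.130) did not pass in that edgeR test, and Tfap2a passed without corn oil replicate 1 (0.55, adjusted p = 0.0394). The luminal keratin share of the subset was 9.48%, 5.85%, 14.5% and 10.1% in the same order, against 9.39%, 7.80%, 10.5% and 9.18% in the rest, and its median depth was the higher one in each library.

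Procr-positive basal cells (at least 1 UMI of Procr, a surface receptor proposed to mark mammary stem cells) also held less Tfap2c. The subset had 343 against 390 CPM, 169 against 290 CPM, 128 against 289 CPM and 305 against 326 CPM in corn oil replicates 1 and 2 and 4OHT replicates 1 and 2, from 25, 67, 36 and 51 cells. It was lower in 4 of 4 libraries, by little in corn oil replicate 1 and 4OHT replicate 2. The log2 fold change was −0.64 (SE 0.17, adjusted p = 0.0158, edgeR), where 2.76% of 9134 genes were called. This call was lost without corn oil replicate 2 (−0.57, adjusted p = 0.142), without 4OHT replicate 1 (−0.48, adjusted p = 0.229) and with median-ratio scaling (−0.54, adjusted p = 0.0769), all in edgeR. Tfap2a had 1 UMI in the subset of each 4OHT-labelled library and did not pass in edgeR (−0.57, adjusted p = 0.532, and −1.05 to −0.18 with 1 library left out), and neither did Tfap2b (−0.18, adjusted p = 0.901). In the same order of libraries, the luminal keratin share of the subset was 10.9%, 6.91%, 6.76% and 10.2%. In the rest it was 9.37%, 7.55%, 10.8% and 9.17%. The subset lay below the rest in corn oil replicate 2 and 4OHT replicate 1 and above it in the others. Its median depth was the higher one in each library. The part of keratin share and depth in the Tfap2c difference was not tested.

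Among hormone-sensing cells, those with at least 1 UMI of Pgr, the progesterone receptor gene, held more Tfap2a. The subset had 83.2 against 36.7 CPM, 41.6 against 24.7 CPM, 73.0 against 51.1 CPM and 48.6 against 29.6 CPM in corn oil replicates 1 and 2 and 4OHT replicates 1 and 2. Tfap2a was higher in 4 of 4 libraries, with a log2 fold change of 0.68 (SE 0.18, adjusted p = 0.0431, edgeR), where 3.93% of 5492 genes were called. The call was lost in edgeR without corn oil replicate 1 (0.54, adjusted p = 0.171), without corn oil replicate 2 (0.68, adjusted p = 0.133) and without 4OHT replicate 2 (0.69, adjusted p = 0.103). Tfap2b stood at 93.4 against 48.0, 84.3 against 43.2, 64.8 against 48.3 and 72.8 against 57.7 CPM in the same order and did not pass (0.55, SE 0.17, adjusted p = 0.0673, edgeR). Tfap2c was below the count filter in this contrast. The median depth of the Pgr subset was above that of the rest in every library but corn oil replicate 1 (7980.5 against 8487 UMIs).

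Among luminal progenitor cells, those with at least 1 UMI of Elf5, an ETS factor of the alveolar lineage, held less Tfap2a. The subset had 20.2 against 29.4 CPM, 35.9 against 43.6 CPM, 29.4 against 40.2 CPM and 18.3 against 23.3 CPM in the same order of libraries. Tfap2a was lower in 4 of 4 libraries (log2 fold change −0.48, SE 0.12, adjusted p = 0.00566, edgeR), where 31.7% of 8580 genes were called, and Tfap2b (0.23, adjusted p = 0.222) and Tfap2c (0.16, adjusted p = 0.300) did not pass. The median depth of the Elf5 subset was 5877, 5325, 4857 and 4010.5 UMIs, against 4970.5, 4572, 4191 and 3303 UMIs in the rest. The part of depth in the difference was not tested. Progenitor cells with the highest casein, Wap and Glycam1 counts held 8.12 against 30.1, 8.60 against 20.998, 18.0 against 19.9 and 9.89 against 21.6 CPM of Tfap2b, from 8, 7, 5 and 6 Tfap2b UMIs. That difference fell short of the threshold (log2 fold change −1.19, SE 0.29, adjusted p = 0.0514, edgeR), where 1.77% of 8472 genes were called. Tfap2a (−0.03, adjusted p = 0.985) and Tfap2c (0.16, adjusted p = 0.796) did not pass there in edgeR. This subset also had the higher median depth in each library. Basal cells and progenitor cells with proliferation genes numbered at most 7 in any library and were not tested. Other classes were not counted for these genes.

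**Figure D4:**
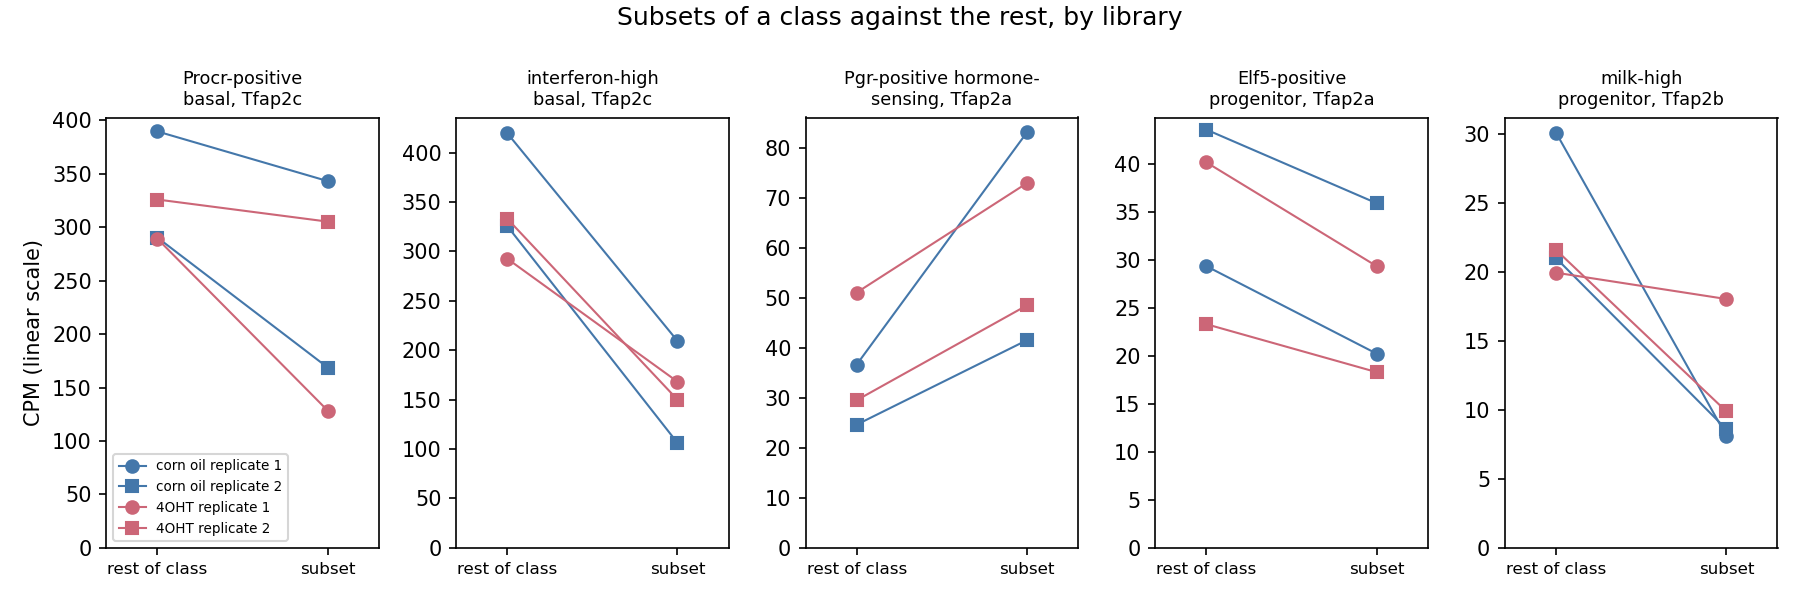
CPM (linear axes) of 1 AP-2 gene in the rest of a class and in a subset of it, with a line joining the 2 values of each library. Tfap2c is lower in interferon-high basal cells in all 4 libraries (106 to 209 against 293 to 420 CPM), and Tfap2a is higher in Pgr-positive hormone-sensing cells and lower in Elf5-positive progenitor cells in all 4.

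Proteins that work with AP-2 were read from a list of 14 cofactors and regulators. Between basal and progenitor cells 3 of 14 were higher in basal cells, 3 lower and 8 did not pass (29.5% and 26.3% of all genes were called higher and lower), with a median log2 fold change of −0.06 against 0.04 over all genes tested. Kctd15 and Kctd1, BTB-domain proteins known to inhibit AP-2 activity, were higher in basal cells, by 2.59 (SE 0.20, adjusted p = 1.9e-06) and 0.93 (SE 0.16, adjusted p = 7.1e-04, edgeR). Cited2 and Cited4, which join AP-2 to the coactivators p300 and CBP, were lower, by −1.93 (SE 0.12, adjusted p = 4.9e-07) and −2.08 (SE 0.33, adjusted p = 3.3e-04, edgeR). Dek (0.41) and Npm1 (−0.27) made up the count. Between basal and hormone-sensing cells 6 were higher in basal cells, 3 lower and 5 did not pass (31.6% and 27.9% of all genes, median 0.21 against 0.05). Cited1 stood at 251 to 781 CPM in hormone-sensing cells and at 3.54 to 13.7 CPM in basal cells (log2 fold change −5.79 for basal over hormone-sensing cells, edgeR), while Cited2 was higher in basal cells by 1.28. Between hormone-sensing and progenitor cells 3 were higher in the former, 2 lower and 9 did not pass (26.1% and 25.9% of all genes, median −0.02 against 0.02), with Cited2 lower by −3.18 (SE 0.23) and Cited1 higher by 5.29 (SE 0.34).

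A list of 20 genes described as AP-2 targets in breast or other epithelium was read in the same way. Between basal and progenitor cells 17 could be tested, of which 4 were higher in basal cells, 11 lower and 2 did not pass (29.5% and 26.3% of all genes were higher and lower), with a median of −0.92 against 0.04 over all genes. Mcam, an adhesion molecule, rose most in basal cells (3.37, SE 0.33), followed by Egfr, the EGF receptor (0.70, SE 0.20), and Cdkn1a, a cell cycle inhibitor (0.58, SE 0.15). Cldn4, a tight junction protein, and Muc1, an apical mucin, were lower by −5.01 (SE 0.22) and −5.49 (SE 0.23), and Kit, a receptor of progenitor cells, had 9.02 to 14.0 CPM in progenitor cells against 0 to 0.306 CPM in basal cells. Between basal and hormone-sensing cells 16 could be tested, of which 6 were higher in basal cells and 9 lower (31.6% and 27.9% of all genes, median −1.23 against 0.05). Egfr (4.18, SE 0.29) and Cd44 (2.92, SE 0.21) were higher there, and Foxa1 (−6.96, SE 0.31), Erbb3 (−4.62, SE 0.26) and Krt7 (−4.39, SE 0.17) lower. Between hormone-sensing and progenitor cells 17 could be tested, of which 4 were higher in the former and 10 lower (26.1% and 25.9% of all genes, median −0.47 against 0.02). Foxa1 (4.396, SE 0.35), the estrogen receptor gene Esr1 (2.98, SE 0.20) and Ecm1 (2.48, SE 0.23) were higher in hormone-sensing cells. Kit (−6.34, SE 0.54), Muc1 (−4.16, SE 0.42) and Egfr (−3.47, SE 0.28) were lower there. The lists were chosen with earlier results known, and these counts carry no test against other genes.

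Under treatment, edgeR called 0 of 14 cofactors and 0 of 15 targets in basal cells, 0 of 14 and 0 of 17 in progenitor cells, and 0 of 13 and 0 of 14 in hormone-sensing cells. At an unadjusted p under 0.05 the counts were 0 and 2, 1 and 0, and 0 and 1, beside 464 of 10775, 164 of 10107 and 239 of 7576 genes in all. The target genes with the smallest p in basal cells were Cldn4 (log2 fold change 1.1997, SE 0.32) and Nfkbia (0.87, SE 0.31), each with an adjusted p of 0.999 in edgeR. The list medians were 0.11 for targets and −0.03 for cofactors in basal cells, against −0.02 over all genes.

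The genes most like each member were found by Pearson correlation of log2(CPM + 1) over 12 sums (4 libraries in 3 classes), among 4125 genes of at least 20 CPM. These values are descriptions, since the sums share libraries and classes. For Tfap2c they were the glucose transporter gene Slc2a1 (r = 0.994), the stress-responsive Ndrg1 (0.993), the amino acid transporter gene Slc7a5 (0.992), the actin-associated Palld (0.991) and the lysyl hydroxylase gene Plod2 (0.990). Slc2a1 stood at 2005 to 3051 CPM in basal, 284 to 585 CPM in progenitor and 91.0 to 178 CPM in hormone-sensing cells. For Tfap2b they were Smim11 (0.969), the tetraspanin gene Tspan3 (0.965), Hoxb3os (0.951), the small GTPase gene Arl2 (0.9496) and the nucleoside kinase gene Dguok (0.941). Tspan3 stood at 141 to 195 CPM in basal and 153 to 187 CPM in hormone-sensing cells, against 29.6 to 39.8 CPM in progenitor cells. For Tfap2a they were Rbm33 (0.940), the cohesin loader gene Mau2 (0.932), the kinase gene Taok1 (0.930), the zinc transporter gene Slc39a1 (0.922) and the ubiquitin ligase gene Ube3a (0.918). All of these genes most like Tfap2a had the same split by replicate number as Tfap2a in basal cells. Slc39a1 had 65.6 and 54.7 CPM in the libraries numbered 1 against 25.8 and 17.0 CPM in those numbered 2. Rbm33 had 33.7 and 29.5 against 24.8 and 19.3 CPM, and Mau2 40.3 and 33.7 against 24.2 and 16.1 CPM. Taok1 had 56.2 and 47.7 against 37.8 and 32.0 CPM, and Ube3a 100.6 and 100.7 against 72.6 and 62.2 CPM. The part of this split in the likeness was not tested.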

How the data were processed

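Droplet 3′ libraries of mammary epithelial cells from 4 mice (2 per treatment, each a separate animal per the labels) were analysed from the raw UMI counts per gene and cell that the authors deposited. The authors made these counts with Cell Ranger 3.0.1 on mm10, per the submitters' processing notes. The strand setting, the use of intronic reads and the cell calling are not given in the sources used here. The members and gene lists were chosen with earlier results of these data known.

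Cells with at least 1000 UMIs were classed by keratin counts, and counts were summed per library and class. Levels (CPM) are a gene's UMIs scaled to a common class total. Sums were tested with edgeR 4.0.16 in R 4.3.3 (TMM, filterByExpr, quasi-likelihood test, Benjamini-Hochberg over all genes, threshold 0.05), treatment over 2 against 2 libraries and classes or subsets with library as a block. The 13 class-defining genes were left out of counts of called genes. Intervals of differences are 95% intervals. Detection was compared after thinning to 2000 UMIs in Python 3.11.15. The tests were checked on simulated data: of 200 genes changed by 2 on the log2 scale, 81%, 65.5% and 74% were recovered in the simulated treatment comparisons of basal (10584 genes), progenitor (9888) and hormone-sensing cells (7295), with 23, 8 and 14 false calls, and 99% in the basal against progenitor comparison (10418), with 10. Scrublet (scanpy 1.11.5) called 5, 5, 7 and 2 cells, so its calls were not used, and the 651 cells of highest score were left out as an alternative. Positions are from GENCODE M21. Alternatives were scaling, low-count filter, DESeq2 1.42.0, cell depth and quality, class rule, doublets, library term, replicate block and each library left out. The text names the members and the 5 genes most like each member. List genes named in class contrasts are among those called with the largest log2 fold change in each direction. In the treatment contrast of basal cells, the targets named are those with the smallest p. Exceptions named after their values were seen are the mixed keratin cells, the keratin share and genes given there. A planned protein comparison was replaced by coding-sequence identity. Proliferating subsets, under 20 cells per library, were not tested.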

Additional observations from a re-analysis of the deposited data

How the results depend on the processing

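The class differences of Tfap2c and of Tfap2b against progenitor cells kept their direction and their call under every alternative run, with Tfap2c at 2.27 to 2.87 for basal over progenitor, 4.91 to 5.66 for basal over hormone-sensing and −3.10 to −2.40 for hormone-sensing over progenitor cells. The sign of Tfap2a between basal and hormone-sensing cells turned with no low-count filter (0.052) and with cells thinned to 1000 UMIs (0.020), and leaving out 1 library gave −0.071 to 0.038. For Tfap2a the same gave 0.16 to 0.61 for basal over progenitor and 0.27 to 0.64 for hormone-sensing over progenitor cells, the latter also passing without the highest Scrublet scores (0.47, adjusted p = 0.0407, edgeR). Treatment values turned sign for Tfap2a in basal (0.0078) and progenitor cells (0.10) at 1000 UMIs, for Tfap2c in basal cells with mixed keratin cells added (0.16), and for Tfap2b (0.075) and Tfap2c (−0.087) in progenitor cells with classes cut at 10 times, none past the threshold. Leaving out 1 library gave, for treatment, Tfap2a −0.36 to 0.35 and Tfap2c −0.28 to 0.10 in basal cells, Tfap2a −0.47 to 0.24, Tfap2b −0.36 to 0.21 and Tfap2c −0.15 to 0.42 in progenitor cells, and Tfap2a −0.25 to 0.47 and Tfap2c −0.96 to 0.23 in hormone-sensing cells. For the interaction of basal against progenitor cells it gave Tfap2a −0.62 to 0.71, Tfap2b 0.11 to 0.88 and Tfap2c −0.64 to 0.22, and for hormone-sensing against progenitor cells Tfap2a −0.38 to 0.81, Tfap2b −0.43 to 0.24 and Tfap2c −0.78 to −0.23. Tfap2b between basal and hormone-sensing cells ran from −0.34 to −0.11. For subsets it gave Tfap2a 0.25 to 0.55 (interferon), −0.30 to 0.21 (milk genes) and 0.54 to 0.78 (Pgr), and Tfap2c −0.0051 to 0.31 (milk genes) and −0.78 to −0.48 (Procr, −0.54 with RLE factors). Genes called for treatment in basal, progenitor and hormone-sensing cells numbered 93, 39 and 59 with no filter, 38, 1 and 7 with DESeq2, and 17 to 127, 31 to 64 and 4 to 80 with 1 library left out. The count was 0 in hormone-sensing cells at 1000 UMIs and with at least 2000 UMIs per cell, and 1 in progenitor cells with classes cut at 10 times. With the replicate block, 167, 9 and 3 genes were called; same-numbered libraries deviated together (correlations 0.728, 0.469 and 0.238), but the labels do not say what a number marks, and no member's call changed. Interaction counts were 55 and 46 with no filter, 0 to 62 and 0 to 116 with 1 library left out, and 1 with RLE factors for hormone-sensing cells. At 1000 UMIs, 3572, 2947 and 2103 genes were called between basal and progenitor, basal and hormone-sensing, and hormone-sensing and progenitor cells. Shares of cells thinned to 1000 UMIs were 4.46%, 3.05% and 5.51% for Tfap2a and 5.05%, 2.01% and 7.58% for Tfap2b in basal, progenitor and hormone-sensing cells, and 23.5% and 3.98% for Tfap2c in basal and progenitor cells. With classes cut at 10 times, the Tfap2c share of basal cells was 30.2% and the Tfap2b share of progenitor cells 3.79%, and the latter was 3.88% without the highest Scrublet scores. Except where shown by construction (fewer UMIs, samples or a wider gene set), the cause was not tested. With 2 mice per treatment, treatment differences of any size within the intervals printed remain possible.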

Other observations

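Mixed keratin cells were set against basal cells of the same library over other genes, as a description chosen after the values were seen. Aldh1a3, an aldehyde dehydrogenase gene of luminal progenitor cells, stood at 24.8 ± 7.63 CPM in mixed keratin and 3.86 ± 1.33 CPM in basal cells (SD, n = 4 libraries), and Elf5 at 8.002 ± 4.79 and 1.59 ± 0.563 CPM. Cldn4 (310 against 85.3 CPM), Cd14 (30.0 against 10.98 CPM) and Krt7 (76.5 against 30.2 CPM) were also higher in 4 of 4 libraries, while Lcn2, of the same progenitor marker list as Aldh1a3, Elf5 and Cd14, was lower in 4 of 4 (1103 against 1590 CPM). Trp63, a basal lineage factor, was lower in 4 of 4 (52.8 against 71.8 CPM), as were Mylk (237 against 395 CPM), Cnn1 (536 against 658 CPM) and the AP-2 inhibitor gene Kctd1 (12.6 against 33.6 CPM). Of the other basal markers, Tagln (2628 against 2799 CPM) and Myh11 (184 against 214 CPM) were higher in 1 of 4 libraries each, and Oxtr (148 against 145 CPM) in 2 of 4. Among the 4241 genes averaging at least 20 CPM over both groups, 22.8% were higher and 18.8% lower in all 4 libraries. Aldh1a3 and Elf5 were below that level. Of the 14 AP-2 cofactors 8 reached it, of which 2 were higher and 3 lower in all 4 libraries. Of the 20 targets 11 reached it, of which 4 were higher and 2 lower. Of the 5 genes most like Tfap2c, Ndrg1 (2030 against 1264 CPM) and Plod2 (89.3 against 52.4 CPM) were higher in 4 of 4 libraries, Slc2a1 (3251 against 2397 CPM) and Slc7a5 (132 against 125 CPM) in 3 of 4, and Palld (508 against 509 CPM) in 2 of 4.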
